A study of Mus musculus with 12 samples.

Results

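The LIM homeobox genes Lhx2, Lhx9 and Lmx1b were followed through chromatin maps of the mouse forelimb bud. For each gene all peaks of 7 peak lists were taken that had at least 1 bp in a fixed window of the mm9 genome. The windows were chromosome 2 from 38000000 to 38400000 for Lhx2, chromosome 1 from 140400000 to 141000000 for Lhx9 and chromosome 2 from 33200000 to 33600000 for Lmx1b. They held 277 of the 189536 peaks in the 7 lists, 81 at Lhx2, 74 at Lhx9 and 122 at Lmx1b.

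The maps came from chromatin immunoprecipitation and sequencing (ChIP-seq). Wild-type embryos at E11.5, of mixed C57BL/6 and CD1 background, gave profiles of the transcription factors HOXA13 and HOXD13, of H3K27ac and of H3K27me3 in the distal forelimb. Hoxa13-/-;Hoxd13-/- embryos of the same stage and background, called the double mutant here, gave H3K27ac and H3K27me3. In these embryos a neomycin cassette interrupts the coding region of Hoxa13 and a lacZ reporter the first exon of Hoxd13, per the labels' protocols. A further H3K27me3 profile was of E10.5 forelimb buds of CD1 mice, made with an antibody of another supplier. HOXA13 chromatin was fixed with an additional cross-linker. The protocols call the E11.5 cells ZAP cells without spelling this out, and the labels do not say whether embryos were pooled. With 1 library per profile, differences between profiles could not be set against replicate spread and were not tested. Read depth is unknown from peak lists. Lists held between 17556 and 38115 peaks. The labelled tissue was not checked against marker genes, because gene positions on mm9 were not used here.

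Lhx2, Lhx9 and Lmx1b encode transcription factors that carry a pair of LIM zinc-binding domains, through which they bind the cofactor LDB1, and a homeodomain that binds DNA. In the limb bud Lhx2 and Lhx9 act in the distal mesenchyme, where they take part in the exchange of signals between the apical ectodermal ridge and the mesenchyme. Lmx1b is expressed in dorsal mesenchyme and gives the limb its dorsal identity. HOXA13 and HOXD13 are the homeodomain factors of the future digits. H3K27ac marks active promoters and enhancers, and H3K27me3 is the mark of Polycomb repressive complexes, which in mammals are found mainly at promoters rich in CG dinucleotides.

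All 3 genes have entries among the promoter sequences of RefSeq, on build GRCm38. The 250 bases before the start of each gene are shown to let a reader see how the genes differ in CG content, with each CG in capitals and the gene's own strand from 5′ to 3′. The builds number positions differently, so these intervals cannot be set beside those of the peaks, and no peak was placed on these bases. The intervals are chr2:38339031-38339280 on the plus strand for Lhx2, chr1:138842445-138842694 on the minus strand for Lhx9 and chr2:33641099-33641348 on the minus strand for Lmx1b.
Lhx2: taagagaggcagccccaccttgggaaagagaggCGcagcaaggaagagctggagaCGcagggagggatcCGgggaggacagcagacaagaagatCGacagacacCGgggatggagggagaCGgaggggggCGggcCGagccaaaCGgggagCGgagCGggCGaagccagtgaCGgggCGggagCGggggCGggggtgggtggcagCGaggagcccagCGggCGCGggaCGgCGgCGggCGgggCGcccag
Lhx9: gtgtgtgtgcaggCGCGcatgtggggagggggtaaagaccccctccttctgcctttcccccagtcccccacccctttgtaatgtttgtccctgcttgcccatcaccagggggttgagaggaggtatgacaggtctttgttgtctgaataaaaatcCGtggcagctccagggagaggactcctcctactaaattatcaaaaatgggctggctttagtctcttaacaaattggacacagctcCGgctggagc
Lmx1b: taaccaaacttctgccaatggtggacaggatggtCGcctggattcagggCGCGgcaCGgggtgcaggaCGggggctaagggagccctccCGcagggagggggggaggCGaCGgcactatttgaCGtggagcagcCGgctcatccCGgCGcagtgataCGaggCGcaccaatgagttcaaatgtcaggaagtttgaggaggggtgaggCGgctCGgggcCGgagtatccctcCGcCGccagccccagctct
The Lhx2 sequence held 25 CG and the Lmx1b sequence 19, against a median of 6.0 over 32841 RefSeq promoters of the same length. The listed Lhx9 start held 4, below that median. Lhx2 had a further listed start, with 24 CG. The motifs TCGTAAA and CAATAAA, forms of the sequence that HOX13 proteins prefer, were searched on both strands; they share their last 4 letters. Neither was present in any of the 4 sequences, and they occurred in 0.478% and 4.21% of all promoters.

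HOX13 binding was dense in all 3 windows. HOXA13 had 18 peaks at Lhx2, 17 at Lhx9 and 16 at Lmx1b. The mean autosomal window held 4.96 HOXA13 peaks per 400 kb, the size of the Lhx2 and Lmx1b windows, and 7.43 per 600 kb, the size of the Lhx9 window. HOXD13 had 13, 17 and 14 peaks in the same order, against means of 3.62 and 5.42. Merging overlapping peaks of both factors gave 20 sites at Lhx2, 19 at Lhx9 and 16 at Lmx1b. The share bound by both factors was 11 of 20 at Lhx2 (55.0%, Wilson 95% interval 34.2 to 74.2%), 15 of 19 at Lhx9 (78.9%, 56.7 to 91.5%) and 13 of 16 at Lmx1b (81.2%, 57.0 to 93.4%). Over all 33743 sites it was 58.0%, a share inside all 3 intervals, though only just above the lower bound at Lmx1b. Counted by peaks, HOXD13 overlapped HOXA13 at 11 of 13 peaks for Lhx2, 15 of 17 for Lhx9 and 13 of 14 for Lmx1b, against 86.9% of all HOXD13 peaks. HOXA13 overlapped HOXD13 at 11 of 18 peaks for Lhx2 (38.6 to 79.7%), 15 of 17 for Lhx9 (65.7 to 96.7%) and 14 of 16 for Lmx1b (64.0 to 96.5%). Over all HOXA13 peaks this share was 63.9%, inside the Lhx2 interval and just below those of Lhx9 and Lmx1b. These intervals cover the counting of sites and not the spread between embryos.

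**Figure D1:**
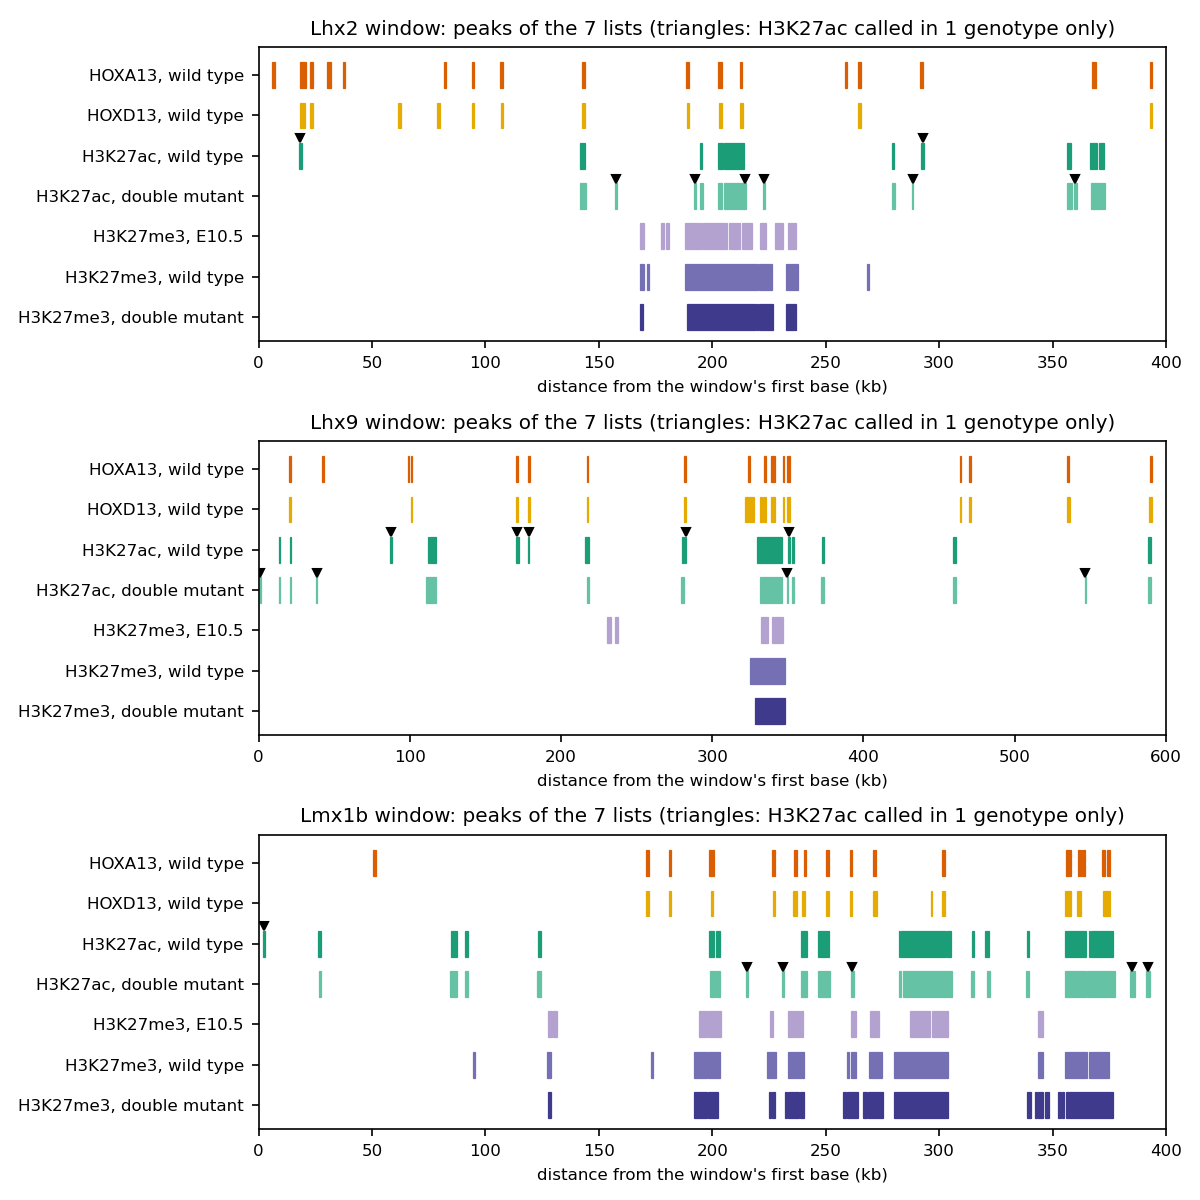
Peaks of the 7 lists in the windows of Lhx2, Lhx9 and Lmx1b, with distance from the window's first base in kb on the horizontal axis, 1 row per list and 1 bar per peak. Triangles mark H3K27ac peaks called in 1 genotype only, 8 of wild type and 15 of the double mutant. H3K27me3 forms 1 compact block at Lhx9 and a series of blocks at Lmx1b.

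At Lhx2 binding was spread over the window and mostly outside both marks. The 5 sites of both factors with the highest HOXA13 score, the peak caller's value that is higher for a smaller p-value, are given in order; where a site held several peaks of a factor, its highest score was taken. The first, at 38264285 to 38265438, scored 435 for HOXA13 and 246 for HOXD13, and the next, at 38022538 to 38024059, scored 426 and 391. The sites at 38093904 to 38095024 (297 and 294) and at 38106619 to 38107666 (274 and 75.9) came after. None of these 4 overlapped H3K27ac or H3K27me3 in either genotype. The last of the 5, at 38202696 to 38204236 (244 and 330), lay inside both marks in both genotypes. In all, 13 of 20 Lhx2 sites had neither mark in wild type (65.0%, 43.3 to 81.9%), against 55.6% of all sites.

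At Lhx9 2 of the 5 highest-scoring sites lay in the broad block with both marks, and the highest of all lay just past its end. The site at 140749414 to 140751552 had the highest scores of the window for both factors, 664 and 682, and it overlapped H3K27ac in both genotypes. Next came the site at 140738751 to 140741515 (542 and 273) and, with 1 site between them in rank, the site at 140733936 to 140735324 (478 and 601). Both lay under H3K27ac and H3K27me3 in both genotypes. The site between, at 140570230 to 140571567 (519 and 206), was far from the block and had H3K27ac in wild type but no called mark in the double mutant. The last of the 5, at 140934375 to 140936649 (259 and 428), had neither mark in either genotype. Of the 19 Lhx9 sites, 6 overlapped neither mark of wild type (31.6%, 15.4 to 54.0%), below the 55.6% of all sites. H3K27me3 of wild type overlapped another 6, against 11.2% of all sites, and the remaining 7 overlapped H3K27ac alone (36.8%, 19.1 to 59.0%), against 33.2% of all sites.

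At Lmx1b most binding lay inside H3K27me3. Of its 16 sites, 12 overlapped wild-type H3K27me3, against 11.2% of all sites, and 8 of them overlapped H3K27ac as well (50.0% of 16, 28.0 to 72.0%), against 4.34% of all sites. The remaining 4 of the 12 had H3K27me3 alone, against 6.81% of all sites. The site at 33555667 to 33558012 had a score of 3100 for both factors, a value that 68 HOXA13 and 54 HOXD13 peaks share. It stood within the top 0.251% of HOXA13 peaks and the top 0.287% of HOXD13 peaks, and no other site of the 3 windows exceeded 664 for HOXA13 or 883 for HOXD13. The next by HOXA13 score were at 33501336 to 33502488 (508 and 476), at 33470700 to 33472499 (462 and 850), at 33370848 to 33372336 (392 and 244) and at 33571659 to 33575321 (374 and 883). The sites at 33555667, 33501336 and 33571659 carried both marks in both genotypes. The site at 33470700 lay in H3K27me3 alone, and the site at 33370848 in neither mark. Among peaks that scored at least 100, the sites of both factors numbered 8 at Lhx9 and 7 at Lmx1b, while sites of 1 factor numbered 5 at Lhx9 and 8 at Lmx1b, where the full lists gave 4 and 3. At Lhx2 the sites of 1 factor went from 9 to 5 in this way, and to 4 with equal list lengths. Windows widened by 100 kb on each side held 19 sites of both factors and 12 of 1 factor at Lhx2.

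**Figure D2:**
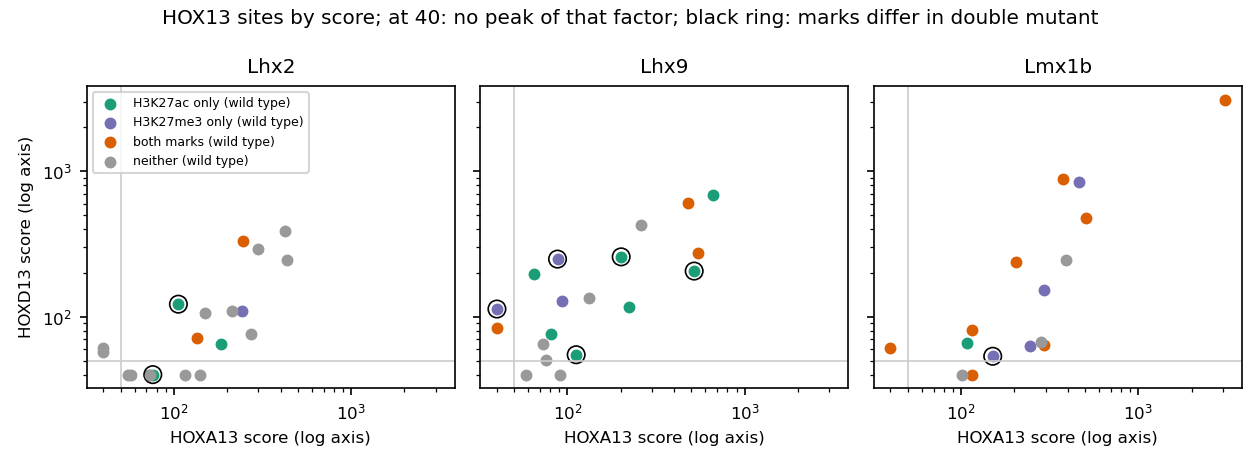
HOX13 sites of each window by HOXA13 score (horizontal) and HOXD13 score (vertical), both on log axes, with colour for the marks called over the site in wild type. Points at 40 have no peak of that factor, the grey lines at 50 show the lowest score in the lists, and black rings mark the 8 sites whose marks differed in the double mutant. At Lmx1b most points carry H3K27me3 or both marks, and 1 site stands at 3100 for both factors.

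H3K27ac was compared between the genotypes next, to ask where acetylation at these loci differed in embryos with both genes disrupted. The widest acetylated block of each of the 3 windows was called in both genotypes. At Lhx2 the widest wild-type H3K27ac peak ran from 38205208 to 38214012, 8.8 kb, and the double mutant had a peak of 8.79 kb over it. At Lhx9 it ran from 140729471 to 140746293, 16.8 kb, a width that 0.0352% of autosomal peaks reached, and the double-mutant peak over it measured 14.6 kb. At Lmx1b it ran from 33483298 to 33502836, 19.5 kb, and the double mutant had a peak of 21.8 kb there that also took in the neighbouring wild-type peak. Each of these blocks scored 3100 in wild type and at least 3100 in the double mutant. The value of 3100 is shared by 4439 wild-type and 2754 double-mutant H3K27ac peaks, other peaks of these windows among them. All 3 overlapped peaks of HOXA13 and HOXD13.

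The second and the third widest wild-type H3K27ac peaks of each window were also called in both genotypes. At Lhx2 these were 38366734 to 38369379 (2.65 kb) and 38202506 to 38204812 (2.31 kb). At Lmx1b they were 33566808 to 33576729 (9.92 kb) and 33555478 to 33564870 (9.39 kb), and double-mutant peaks covered 99.5% and 99.0% of them. At Lhx9 the peak from 140513536 to 140517491 (3.96 kb) was covered to 95.9% in the double mutant. The third, from 140616160 to 140618580 (2.42 kb), was covered to 40.4% only, by a peak of 0.978 kb. This Lhx9 peak overlapped a site of both factors, at 140616967 to 140617997, which kept H3K27ac in the double mutant.

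Peaks of wild type that met none of the double mutant were counted as lost, and those of the double mutant that met none of wild type as gained. Lost peaks numbered 2 of 10 at Lhx2 (20.0%, 5.67 to 51.0%), 5 of 16 at Lhx9 (31.2%, 14.2 to 55.6%) and 1 of 18 at Lmx1b (5.56%, 0.988 to 25.8%). Over all wild-type H3K27ac peaks 15.1% were lost, which lies inside each interval. Gained peaks numbered 6 of 14 at Lhx2 (42.9%, 21.4 to 67.4%), 4 of 15 at Lhx9 (26.7%, 10.9 to 52.0%) and 5 of 23 at Lmx1b (21.7%, 9.66 to 41.9%). Over all double-mutant peaks 30.1% were gained, again inside each interval. The double-mutant list is the longer of the pair, 38115 against 31933 peaks, so gain and list length cannot be told apart. In bulk tissue fewer marked cells and less mark per cell cannot be told apart either.

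HOX13 peaks overlapped 6 of 10 wild-type H3K27ac peaks at Lhx2, 8 of 16 at Lhx9 and 6 of 18 at Lmx1b, against 37.8% of all. Double-mutant H3K27ac peaks at positions bound in wild type numbered 4 of 14, 5 of 15 and 8 of 23, against 29.1%.

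Of the 5 lost peaks of Lhx9 4 overlapped sites of both factors, while 53.4% of all lost peaks were bound by either factor, and 4 of its 8 bound wild-type peaks were lost, against 21.3% of all bound peaks and an interval of 21.5 to 78.5%. The bound ones were at 140681891 to 140682919 (score 113), at 140577991 to 140579048 (89.5), at 140570456 to 140571908 (73.4) and at 140750395 to 140751207 (70.4). The unbound one, at 140486983 to 140488018, scored 77.2. Of the 8 unbound peaks 1 was lost, against 11.3% of all unbound peaks. All 5 lost peaks had scores below the median of 336 over the kept peaks of the window. The peak at 140681891 lay 0.819 kb from a double-mutant peak and the peak at 140750395 lay 0.238 kb from one. Counting peaks within 1000 bp as overlapping left 3 of the 5 lost, 2 of them bound. A score of 100 or more left 1 of the 5, a bound one, and newly called 1 unbound peak lost, at 140413396 to 140414328.

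At the site with the highest scores of the Lhx9 window both genotypes had called acetylation, in different places. The lost wild-type peak at 140750395 to 140751207 and the gained double-mutant peak at 140749190 to 140750157 (score 60.0) lay side by side over the same site of both factors. Both peaks were in the weakest part of their lists, where 89.6% of wild-type peaks and 92.6% of double-mutant peaks scored at least as high.

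At Lhx2 both lost peaks overlapped HOX13 peaks as deposited, the one at 38292177 to 38293249 (score 124) of HOXA13 and the one at 38017884 to 38018951 (109) of both factors. With a score of 100 or more, and with equal list lengths, both peaks were still lost and 1 of the 2 was bound. None of the 6 gained Lhx2 peaks did, and their scores ran from 50.8 to 119. The 5 highest were at 38359284 to 38360636 (119), 38157061 to 38158141 (73.1), 38214123 to 38214985 (65.4), 38222429 to 38223339 (63.3) and 38287967 to 38288682 (56.2). Of the 6, 3 lay in double-mutant H3K27me3, and the share of all gained peaks that did so was not counted. Over all double-mutant H3K27ac peaks, gained or not, 13.2% overlapped it. The 3 began at 38191843 (score 50.8), 38214123 and 38222429, and lay 1.98, 0.111 and 8.42 kb from a wild-type H3K27ac peak. Of the 4 bound double-mutant peaks of Lhx2 none was gained, against 13.3% of all bound ones. Equal list lengths left 1 of the 6, as did a score of 100 or more, under which 1 other peak, at 38194523 to 38195720, was newly called gained.

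At Lmx1b the lost peak, at 33201837 to 33202653 (score 65.7), was unbound and lay at the window's edge. None of the 6 bound wild-type peaks of Lmx1b was lost, with an upper bound of 39.0% by the Wilson interval. Over all bound peaks 21.3% were lost, which lies inside that interval. The gained peaks were at 33584164 to 33586255 (234), 33591170 to 33593023 (158), 33461200 to 33462439 (101), 33414693 to 33415573 (64.8) and 33430804 to 33431652 (55.4). The one at 33461200 overlapped a site of both factors, at 33460620 to 33461740. That site carried H3K27me3 alone in wild type and both marks in the double mutant. Equal list lengths gave 2 lost and 3 gained peaks at Lmx1b, and the wider windows 4 and 10, with 1 of the 4 lost peaks bound. With a score of 100 or more the reported lost peak was no longer called, and 1 other, at 33226363 to 33227368, was newly called lost. Of the 5 gained peaks 3 were still called under that score, and 3 others were newly called. At Lhx9 the gained peaks scored 96.3, 74.3, 63.9 and 60.0, at 140400697 to 140401730, 140946277 to 140947164, 140438109 to 140438920 and 140749190 to 140750157. Only the last was bound, and equal list lengths left 1 of the 4. None of the 4 reached a score of 100; among peaks that did, 1 other peak, at 140511024 to 140513303, was newly called gained.

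Seen from the sites, H3K27ac was called in wild type and not in the double mutant at 2 of 6 acetylated sites of Lhx2, 3 of 10 of Lhx9 and 0 of 9 of Lmx1b. Over all acetylated sites this share was 20.3%. The 2 Lhx2 sites, the 3 Lhx9 sites and no Lmx1b site thus went from H3K27ac alone to neither mark. No site of the 3 windows went from H3K27ac to H3K27me3, where 12 of 55 sites had H3K27ac alone in wild type. The share of all sites that made this change was not counted, so its absence cannot be called particular to these loci.

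Widths were compared for the peaks called in both genotypes. Among kept wild-type peaks the double-mutant peaks over them were wider in sum at 6 of 8 for Lhx2, 4 of 11 for Lhx9 and 14 of 17 for Lmx1b. Over all kept peaks this was 70.3%. A double-mutant peak over several wild-type peaks counted in full for each, as the 21.8 kb peak did at Lmx1b. Any excess counted, as with 9394 against 9393 bp for the Lmx1b peak at 33555478. In covered length at Lhx2, H3K27ac of wild type measured 24.1 kb and that of the double mutant 30.5 kb, a ratio of 1.27. It measured 64.4 and 74.0 kb at Lmx1b, a ratio of 1.15. At Lhx9 it measured 39.9 and 36.2 kb, a ratio of 0.906, while the ratio over all autosomes was 1.25. Lhx9 was thus the locus of the 3 with less covered length in the double mutant, on a background that went the other way. H3K27ac lengths were not recomputed under the alternatives of processing. With 1 library per genotype and unknown read depth, this difference was not tested.

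**Figure D3:**
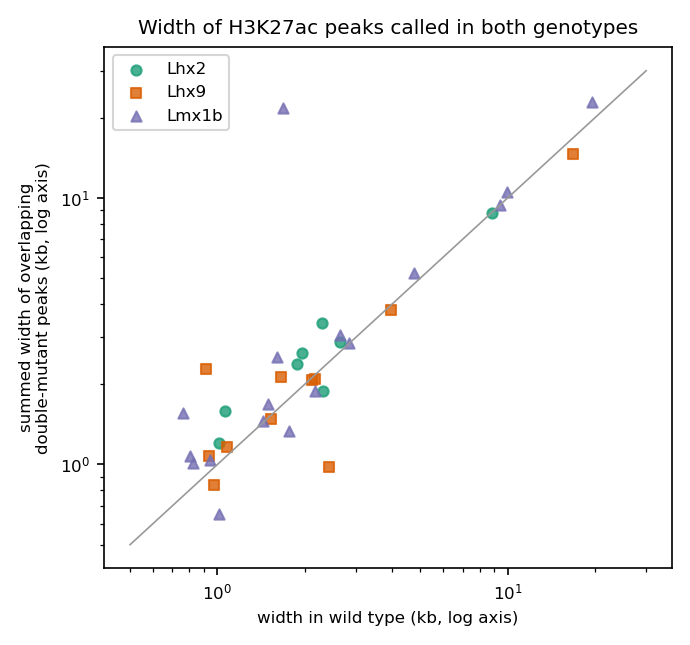
Width of wild-type H3K27ac peaks called in both genotypes (horizontal, kb, log axis) against the summed width of the double-mutant peaks over them (vertical, kb, log axis), with 1 point per peak and a line of equal width. Of the Lhx9 points 4 of 11 lie above the line, and of the Lmx1b points 14 of 17. The Lmx1b point far above it is the 1.68 kb wild-type peak that the 21.8 kb double-mutant peak takes in.

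H3K27me3 was then set out per list. In wild type it covered 46.2 kb at Lhx2, 22.4 kb at Lhx9 and 79.3 kb at Lmx1b. In the double mutant it covered 42.3, 19.5 and 90.4 kb, and at E10.5 41.0, 15.9 and 44.3 kb, in the same order. The double mutant thus had less covered length than wild type at Lhx2 and Lhx9, and more at Lmx1b. Divided by the double-mutant length, the wild-type length was 1.09 at Lhx2, 1.15 at Lhx9 and 0.877 at Lmx1b, against 1.24 over all autosomes. The sign of each difference held with a score of 100 or more, with neighbouring peaks joined and with equal list lengths. The other alternatives of processing returned the reported lengths and so say nothing further about the sign. The overlap rules among them cannot alter a covered length. The Lhx9 difference of 2.86 kb shrank to 1.06 kb with a score of 100 or more, and to the same value with equal list lengths.

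**Figure D4:**
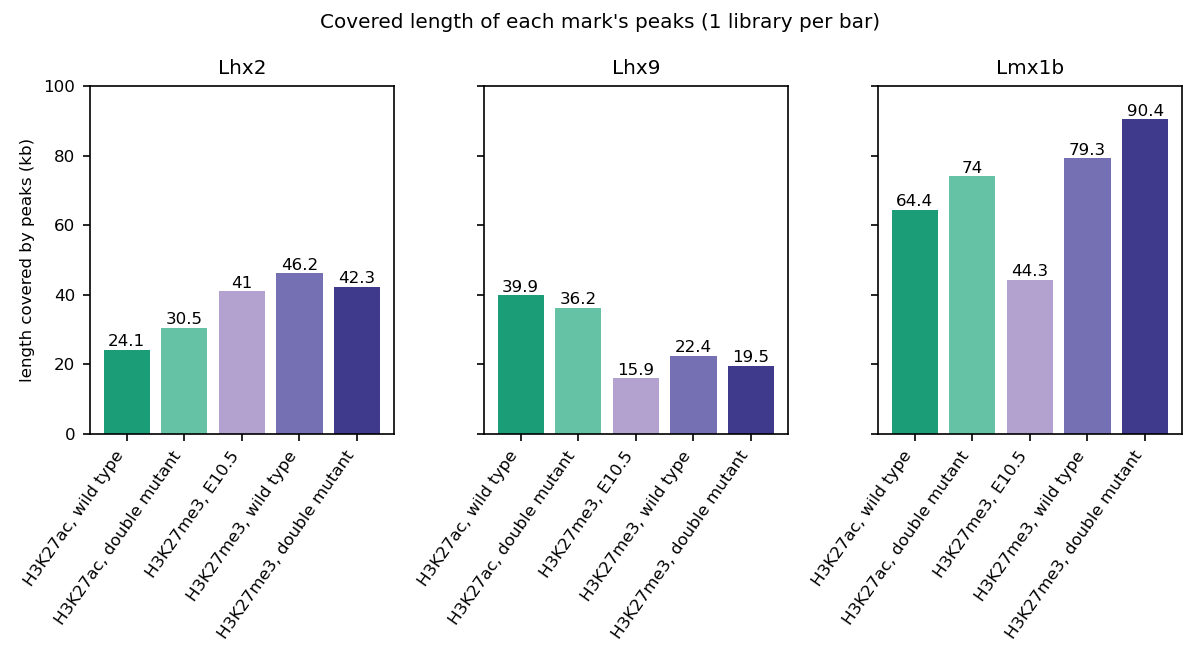
Length covered by the peaks of each mark in each window, in kb, with 1 bar per list and 1 library per bar, so no error bars can be given. H3K27me3 of the double mutant stands at 90.4 kb at Lmx1b, above the 79.3 kb of wild type, and below wild type at the other loci.

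Each gene's window held a broad wild-type H3K27me3 peak that was still covered in the double mutant. At Lhx2 it ran from 38190267 to 38220082, 29.8 kb, and 0.693% of autosomal wild-type peaks were as wide. Of its length 98.1% lay under the double-mutant list, split over 3 peaks there, and 85.0% under the E10.5 list, split over 5. At Lhx9 it ran from 140727239 to 140747810, 20.6 kb, with 94.2% covered in the double mutant and 58.2% at E10.5. At Lmx1b it ran from 33480150 to 33503870, 23.7 kb, with 99.2% covered in the double mutant and 66.3% at E10.5. All of these broad peaks scored 3100, a value that 4549 wild-type H3K27me3 peaks share.

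The broad peaks also carried H3K27ac and HOX13. Wild-type H3K27ac covered 40.7% of the Lhx2 peak, 81.8% of the Lhx9 peak and 87.6% of the Lmx1b peak. Over all autosomes it covered 7.74% of the wild-type H3K27me3 length. Double-mutant H3K27ac covered 45.5%, 70.9% and 88.5% of the same 3 peaks. HOX13 sites numbered 2 in the Lhx2 peak, 5 in the Lhx9 peak and 2 in the Lmx1b peak, with no count for other broad peaks beside them. Over the whole windows, wild-type H3K27me3 lay over 50.3% of the H3K27ac length at Lhx2, 42.1% at Lhx9 and 68.3% at Lmx1b, against 9.82% over all autosomes. In the double mutant the shares were 47.5%, 40.1% and 65.8%, against 8.86%. By peaks, H3K27ac overlapped H3K27me3 of wild type at 3 of 10 peaks for Lhx2, 1 of 16 for Lhx9 and 9 of 18 for Lmx1b, where 15.5% of all wild-type H3K27ac peaks did. In the double mutant it did so at 6 of 14, 1 of 15 and 12 of 23 peaks, against 13.2% of all. Both marks on the same nucleosomes and each mark in different cells of the tissue cannot be told apart in these maps.

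**Figure D5:**
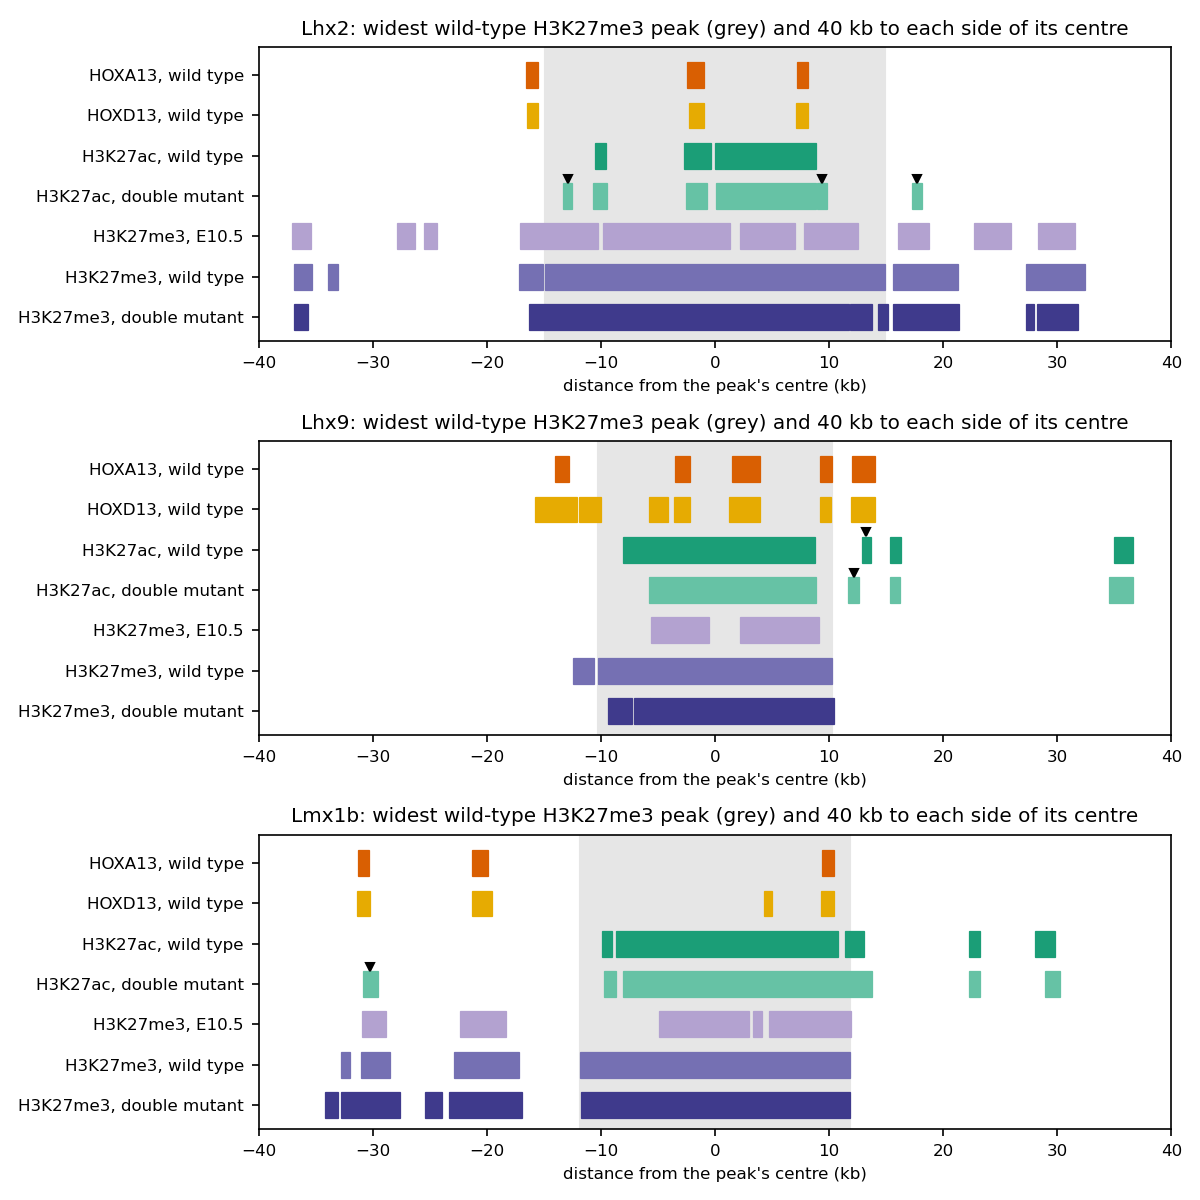
The widest wild-type H3K27me3 peak of each window in grey, with the peaks of the 7 lists within 40 kb of its centre, 1 row per list, and distance from that centre in kb on the horizontal axis and triangles over H3K27ac peaks called in 1 genotype only. H3K27ac of both genotypes fills a part of the grey span at each gene, covering 40.7% of it in wild type at Lhx2, 81.8% at Lhx9 and 87.6% at Lmx1b.

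At Lhx9 the left side of the block differed between the genotypes. The wild-type H3K27me3 peak at 140725124 to 140726918 (1.79 kb, score 83.9) had no double-mutant peak, and double-mutant H3K27me3 began at 140728198. The double-mutant block consisted of peaks at 140728198 to 140730255, 140730431 to 140731809 and 140731873 to 140747947 (2.06, 1.38 and 16.1 kb). The wild-type H3K27ac block began at 140729471 and that of the double mutant at 140731761. HOX13 sites at 140721717 to 140725467 (scores 87.9 and 249) and 140725636 to 140727568 (HOXD13 only, 113) lay on this side. Both overlapped H3K27me3 in wild type and neither mark in the double mutant. The second of them also reached the first bases of the broad wild-type peak. No other HOX13 site of the 3 windows went from called H3K27me3 to none. The share of all sites that went this way was not counted, so this change cannot be called particular to Lhx9. Among all sites, 6.81% had H3K27me3 alone in wild type, against 5.1% with the double-mutant lists. Both marks were called at 4.34% and 3.46% of them, in the same order. Both Lhx9 sites overlapped the wild-type peak at 140725124. The peak at 140725124 was weak for its list, in which 80.7% of peaks scored at least as high.

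At Lhx2 the peaks beside the broad one were called in both genotypes. The next widest wild-type peaks, at 38220739 to 38226489 (5.75 kb) and 38232459 to 38237648 (5.19 kb), were covered to 99.3% and 82.8% in the double mutant. The widest double-mutant peaks were at 38190277 to 38216890 (26.6 kb), 38220781 to 38226569 (5.79 kb) and 38233428 to 38237010 (3.58 kb). Wild-type peaks without a double-mutant peak numbered 2 of 7 at Lhx2, 1 of 2 at Lhx9 and 2 of 15 at Lmx1b, where the share over autosomes was 30.4%. The scores of these 5 peaks lay between 50.8 and 83.9, near the lower limit of the list.

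At Lmx1b the double mutant had additional H3K27me3. Peaks without a wild-type peak numbered 8 of 22 (36.4%, 19.7 to 57.0%), 0 of 8 at Lhx2 and 0 of 3 at Lhx9, against 15.8% over autosomes. Their scores ran from 57.3 to 211, and the highest was at 33546586 to 33548658. That peak lay close to the wild-type peak at 33543675 to 33545795. The peaks at 33457829 to 33459014 and 33554202 to 33555267 lay close to wild-type peaks that began at 33459241 and 33555590. Others, such as the peak at 33538610 to 33540709, lay farther from any. The rule of 1000 bp was not applied to this count, so separate peaks and edges of shared blocks cannot be told apart. Of the 8, 5 lay between 33538610 and 33555267, next to the peaks from 33555766 to 33565054 and from 33565108 to 33576843 (9.29 and 11.7 kb), which with the peak at 33480305 to 33503824 (23.5 kb) were the widest of the list there. The wild-type list had peaks at 33555590 to 33565095 (9.51 kb), 33565920 to 33568593 and 33568610 to 33574753 over the same stretch. The third widest wild-type peak was at 33433576 to 33440484 (6.91 kb), and 95.1% of it was covered in the double mutant.

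The E10.5 list was nearly empty over this far part of the Lmx1b window, a stretch singled out after its values were seen. E10.5 H3K27me3 covered 0.0% of the wild-type peak at 33555590 to 33565095, while it covered 91.9% of the peak at 33433576 to 33440484. From 33543675 to 33574753 it covered 2.15 kb, in 1 peak at 33543701 to 33545847, against 20.4 kb for wild type and 25.7 kb for the double mutant. This stretch held 3 sites of both factors, among them the site that scored 3100 for both, and wild-type H3K27ac covered 58.2% of it. The E10.5 list is the shortest, and 50.2% of autosomal wild-type H3K27me3 peaks had no E10.5 peak, against 6 of 15 at Lmx1b, 2 of 7 at Lhx2 and 1 of 2 at Lhx9. Of the double-mutant peaks 11 of 22 at Lmx1b, 2 of 8 at Lhx2 and 2 of 3 at Lhx9 had no E10.5 peak, against 46.5% over autosomes.

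In the other direction, E10.5 peaks without a peak in either E11.5 list numbered 3 of 11 at Lhx2, 2 of 4 at Lhx9 and 1 of 14 at Lmx1b, against 12.2% over autosomes. Without a peak in the wild-type list the counts were the same, against 13.6%. The Lhx9 pair, at 140630674 to 140633003 (2.33 kb, score 86.7) and 140635810 to 140637378 (score 50.3), lay well away from the broad block. The widest E10.5 peaks were at 38195335 to 38203761, 38188108 to 38194913 and 38207412 to 38212231 for Lhx2 (8.43, 6.81 and 4.82 kb). For Lhx9 they were at 140739756 to 140746665 and 140731943 to 140737011 (6.91 and 5.07 kb), and for Lmx1b at 33487145 to 33494957, 33496767 to 33503937 and 33433268 to 33438365 (7.81, 7.17 and 5.1 kb). These overlapped wild-type E11.5 peaks. The third widest at Lhx9, the peak at 140630674 named above, did not. Stage, antibody, strain and part of the limb differ together between E10.5 and E11.5 and cannot be told apart.

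Each window may hold other genes. In RefSeq on GRCm38 the protein-coding neighbours are Dennd1a and Nek6 for Lhx2, Nek7 and 2310009B15Rik for Lhx9, and Zbtb43 and Mvb12b for Lmx1b. Which peaks belong to which gene, and which lie in exons, introns or promoters, was not determined.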

How the data were processed

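ChIP-seq peak lists of 7 immunoprecipitated libraries were used, and the 5 input libraries were not analysed here. Per the submitters' processing notes, Bowtie 0.12.7, MACS 1.4 and build mm9 were used; the roles are not given in the sources used here. The authors deposited a score per peak, read here as MACS's scaled negative logarithm of the p-value, on which the lowest value of 50 stands for 1e-05. Scores were used within a list only. Each list held 6 to 16 peaks beyond base 195471971 of chromosome 1, where GRCm38 ends, so GRCm38 gene models were not used. Positions count from 1. A peak was a member where at least 1 bp lay in a window, and overlap meant 1 bp in common. HOXA13 and HOXD13 peaks that overlapped were merged into sites. Bound peaks were those in contact with a HOXA13 or HOXD13 peak. Shares of H3K27me3 peaks over autosomes leave out the sex chromosomes, because the X chromosome differed between the lists. Autosomes held 19624 of 28875 wild-type, 18973 of 19358 double-mutant and 15077 of 17556 E10.5 H3K27me3 peaks. The cause of this difference was not tested. Ranks by score within a list were taken over all its peaks. Covered length was counted inside the windows. Intervals are Wilson 95% intervals (scipy 1.17.1, pandas 2.3.3, Python 3.11.15). Overlap calling was checked on simulated data.

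Members, windows and rules were chosen with earlier results of these data known. The text names, per window, the 5 sites of both factors with the highest HOXA13 score, up to 5 lost and 5 gained H3K27ac peaks by score, and the 3 widest wild-type H3K27ac and H3K27me3 peaks; other regions were chosen after their values were seen. Promoter sequences were matched by symbol, and all 3 genes matched.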

Additional observations from a re-analysis of the deposited data

How the results depend on the processing

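All 27 values were recomputed under 7 alternatives: a score of 100 or more, overlap of at least 50% of either peak, peaks within 1000 bp counted as overlapping, neighbouring peaks joined, equal list lengths on autosomes, peaks wholly inside the window, and windows widened by 100 kb on each side. Only the differences in H3K27me3 length carry a sign, and none reversed. Of 189 values 162 stayed within 1.5 times the reported one. These include H3K27me3 lengths under the 50% and 1000 bp overlap rules, which cannot alter a covered length. Taking only peaks wholly inside the window returned all 27 reported values, and the H3K27me3 lengths were also unchanged for the widened windows. The 162 thus include values that a setting could not move or left as they were. A score of 100 or more gave 8 sites of both factors at Lhx9 and 7 at Lmx1b, 2 gained H3K27ac peaks at Lhx2, 2 lost and 1 gained at Lhx9, and 1.06 kb in place of 2.86 kb for the H3K27me3 difference at Lhx9. Equal list lengths gave 1 gained peak at Lhx2, 1 gained peak and 1.06 kb at Lhx9, and 2 lost and 3 gained peaks at Lmx1b. Counting peaks within 1000 bp as overlapping gave 3 lost peaks at Lhx9. Wider windows gave 19 sites of both factors at Lhx2, and 4 lost and 10 gained peaks at Lmx1b. These counts are not always of the reported peaks: at a score of 100 or more 1 of the 5 lost and 0 of the 4 gained peaks of Lhx9 and 1 of the 6 gained of Lhx2 were still called, and 1 peak was newly called in each of these. At Lmx1b the reported lost peak gave way to 1 newly called, and 3 of the 5 gained peaks were still called beside 3 newly called. The cause of these shifts was not tested. No paired analysis was possible because each group holds 1 library. Read depth is unknown and limits what a missing peak can show.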
